A study of Mus musculus with 8 samples.

Results

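The expression of 8 transcription factors of the trophoblast, the lineage that forms the fetal part of the placenta, was examined in mouse embryonic stem cells that lack the histone demethylases Jmjd1a, Jmjd1b or both. The factors Tfap2c, Eomes, Cdx2, Elf5, Gata3, Hand1, Tead4 and Ets2 were taken as a named list, and every probe set whose only gene symbol was one of these names was included, which gave 17 probe sets for 8 of the 18194 genes on the array. Only 5 probe sets of 2 genes, Tfap2c and Eomes, carried a measured difference. The 8 arrays formed 4 groups of 2 biological replicates: double-KO cells (Jmjd1a delta/delta with Jmjd1b delta/delta), Jmjd1a-KO cells (Jmjd1a delta/delta with intact Jmjd1b), Jmjd1b-KO cells (intact Jmjd1a with Jmjd1b delta/delta) and WT cells with both genes intact. Cells were grown in medium with LIF, the cytokine that keeps mouse embryonic stem cells undifferentiated, serum replacement and fetal calf serum. The double-KO was induced in a Jmjd1a-deficient line that carries conditional Jmjd1b alleles and MerCreMer, a Cre recombinase that the compound OHT switches on. Every sample carries the same protocol, which names 800 nM OHT, and the labels mark none as an OHT-treated control without the conditional alleles. The samples of the WT and Jmjd1b-KO groups are described as cells from mice, whereas the series' design speaks of targeted lines, and the sources do not tie a replicate to a line. Differences between the lines therefore cannot be told apart from the effects of the deletions.

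Jmjd1a and Jmjd1b, now named Kdm3a and Kdm3b, remove methyl groups from lysine 9 of histone H3, a mark of silent chromatin. In the early mouse embryo, the trophoblast separates from the cells that give rise to embryonic stem cells: Tead4, kept active where Hippo signalling is low, switches on Cdx2 and Gata3, and Tfap2c, Eomes, Elf5 and Ets2 are needed to establish or keep trophoblast stem cells. Embryonic stem cells normally hold this programme silent, and Tfap2c is also a factor of primordial germ cell specification.

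All values are the deposited log2 signals, 1 per probe set and array, and changes are log2 differences of group means from a limma fit of 4 group means over the 8 arrays. A probe set is called measured where its 8 values span at least 0.01, which held for 11502 of 45101 probe sets. Only these entered the fit, and p-values were adjusted over all of them. A probe set rose or fell where its adjusted p was under 0.05. The labels call the 2 arrays of a group biological replicates without saying what separates them, so the p-values measure the spread between these arrays. The number of arrays limits the precision. Leaving out an array, or fitting all 45101 probe sets, also changed the number of calls over all probe sets fitted. Changes of member and list counts in these settings are therefore not particular to those genes. The deleted genes followed the labels. Kdm3a had signals of 4.60 to 4.77 in double-KO and 4.87 to 5.08 in Jmjd1a-KO, against 12.80 to 12.83 in Jmjd1b-KO and 12.73 to 12.83 in WT. Kdm3b had signals of 7.06 to 7.66 in double-KO and 7.07 to 7.10 in Jmjd1b-KO, against 9.81 to 9.95 in Jmjd1a-KO and 9.91 to 9.96 in WT, while a second Kdm3b probe set was flat. The replicates of double-KO and Jmjd1a-KO differed more (SD of the replicate difference 0.30 and 0.35) than those of Jmjd1b-KO and WT (0.12 and 0.16).

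The cells carried signals of embryonic stem cell markers in all groups. Over 15 measured probe sets of 12 such markers, the mean signal per array lay between 10.47 and 11.15 in double-KO, 11.09 and 11.17 in Jmjd1a-KO, 10.71 and 10.74 in Jmjd1b-KO, and 10.67 and 10.67 in WT. The double-KO arrays stood apart from each other: Esrrb, a nuclear receptor of the pluripotency network, read 7.68 in replicate 1 and 9.58 in replicate 2. Klf4, a Krüppel-like factor, read 8.74 and 10.25. Of all measured probe sets, 26.9%, 9.98% and 12.3% rose against WT in double-KO, Jmjd1a-KO and Jmjd1b-KO, and 19.6%, 7.84% and 11.5% fell. Against WT, 5, 3 and 1 of the 15 rose in double-KO, Jmjd1a-KO and Jmjd1b-KO and 0 fell in each, but 8 fell in double-KO when its replicate 2 was left out. With all 45101 probe sets in the fit 2, 0 and 1 rose, and without one array at a time 4 to 5, 0 to 8 and 0 to 2 did. Tfap2c did not part the double-KO arrays in this way: its probe set of highest mean read 12.14 and 12.17 there, and its change in double-KO against WT lay between 3.79 and 3.99 without one array at a time. Of 9 listed markers of differentiated trophoblast, 3 had a probe set of their own, and all 6 of these probe sets were flat. Fibroblast markers are a possible sign of feeder cells. Over 15 measured probe sets of them, the mean signal was 7.72 to 7.90 in double-KO, 7.76 to 7.93 in Jmjd1a-KO and 6.79 to 6.91 in Jmjd1b-KO, against 8.63 to 8.73 in WT. Of these, 8 fell in double-KO, 9 in Jmjd1a-KO and 12 in Jmjd1b-KO, where 19.6%, 7.84% and 11.5% of all measured probe sets fell, and 0, 0 and 1 rose, where 26.9%, 9.98% and 12.3% did. The 9 in Jmjd1a-KO became 5 without either Jmjd1b-KO array, 3 without WT replicate 1, and 2 without WT replicate 2 or with all probe sets in the fit, and the 12 in Jmjd1b-KO became 6 without Jmjd1b-KO replicate 2. Of 17 probe sets of 7 primitive endoderm markers 3 were measured, with means of 6.99 to 7.38 in double-KO, 6.74 to 6.86 in Jmjd1a-KO and 6.21 to 6.25 in Jmjd1b-KO, against 6.50 to 6.59 in WT. These marker signals moved with the groups, and their part in the results below was not tested.

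Of the 8 members, 5 had a sequence around the transcription start in the RefSeq set used (GRCm38.p6, 250 bases before to 50 after the start, 6 windows). They were searched for the AP-2 consensus GCCNNNGGC, which Tfap2c binds and which reads the same on both strands. It occurred in 2 of the 6 windows, those of Cdx2 and Gata3, against 16.6% of all 32851 windows. The window of Eomes, the member that rose beside Tfap2c, is shown with those of the 2 members that hold the motif. Capitals mark the motif, and all 3 are written 5′ to 3′ in the sense of the gene: Eomes at chr9:118477939-118478238 on the plus strand, Cdx2 at chr5:147307200-147307499 on the minus strand and Gata3 at chr2:9878551-9878850 on the minus strand.
Eomes: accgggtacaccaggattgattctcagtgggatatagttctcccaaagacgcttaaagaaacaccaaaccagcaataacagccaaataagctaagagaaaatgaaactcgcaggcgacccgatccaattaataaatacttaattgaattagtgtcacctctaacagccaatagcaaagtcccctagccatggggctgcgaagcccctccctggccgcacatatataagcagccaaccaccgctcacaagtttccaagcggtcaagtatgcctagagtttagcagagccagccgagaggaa
Cdx2: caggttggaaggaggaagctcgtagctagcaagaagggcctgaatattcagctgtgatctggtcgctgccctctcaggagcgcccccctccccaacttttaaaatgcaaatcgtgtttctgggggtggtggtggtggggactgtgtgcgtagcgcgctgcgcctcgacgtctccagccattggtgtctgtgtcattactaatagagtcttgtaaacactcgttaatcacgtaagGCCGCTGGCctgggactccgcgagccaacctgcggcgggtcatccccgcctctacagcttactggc
Gata3: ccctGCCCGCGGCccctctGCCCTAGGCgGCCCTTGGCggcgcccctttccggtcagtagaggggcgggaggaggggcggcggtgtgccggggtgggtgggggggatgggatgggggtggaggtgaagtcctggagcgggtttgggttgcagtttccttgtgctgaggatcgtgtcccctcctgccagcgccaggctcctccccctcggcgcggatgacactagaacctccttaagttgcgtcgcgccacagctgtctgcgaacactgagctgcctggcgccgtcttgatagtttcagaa
The motif stood once in the Cdx2 window, from base 235, and 3 times in the Gata3 window, first from base 5. The TEAD motif CATTCC, searched on both strands as CATTCC and GGAATG, occurred in 1 of the 6 windows, the upstream window of Elf5, against 14.7% of all windows. A match is a run of letters and not a binding site. The Eomes window held 10 CpG dinucleotides, against 18 in Cdx2, 22 in Gata3 and a median of 7 over all windows.

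Tfap2c, the AP-2 factor of trophoblast and germ cells, was higher in every knockout group than in WT, and its level was graded: it was highest in double-KO, next in Jmjd1a-KO, then in Jmjd1b-KO and lowest in WT. All 3 Tfap2c probe sets gave this order, and no 2 groups overlapped in any of them. The probe set with the highest signal, 1436392_s_at, read 12.14 and 12.17 in double-KO, 10.80 and 10.68 in Jmjd1a-KO and 9.79 and 9.53 in Jmjd1b-KO, against 8.16 and 8.36 in WT. Neighbouring groups lay at least 0.90 apart, while replicates differed by at most 0.26. Probe set 1418147_at read 10.82 and 10.77 in double-KO, 9.15 and 9.25 in Jmjd1a-KO and 8.32 and 8.38 in Jmjd1b-KO, against 7.27 and 7.51 in WT. Probe set 1448977_at read 10.30 and 10.32 in double-KO, 8.76 and 8.96 in Jmjd1a-KO and 8.06 and 7.99 in Jmjd1b-KO, against 7.09 and 7.28 in WT. The plot of signals by array shows the same staircase in the 3 Tfap2c panels.

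**Figure D1:**
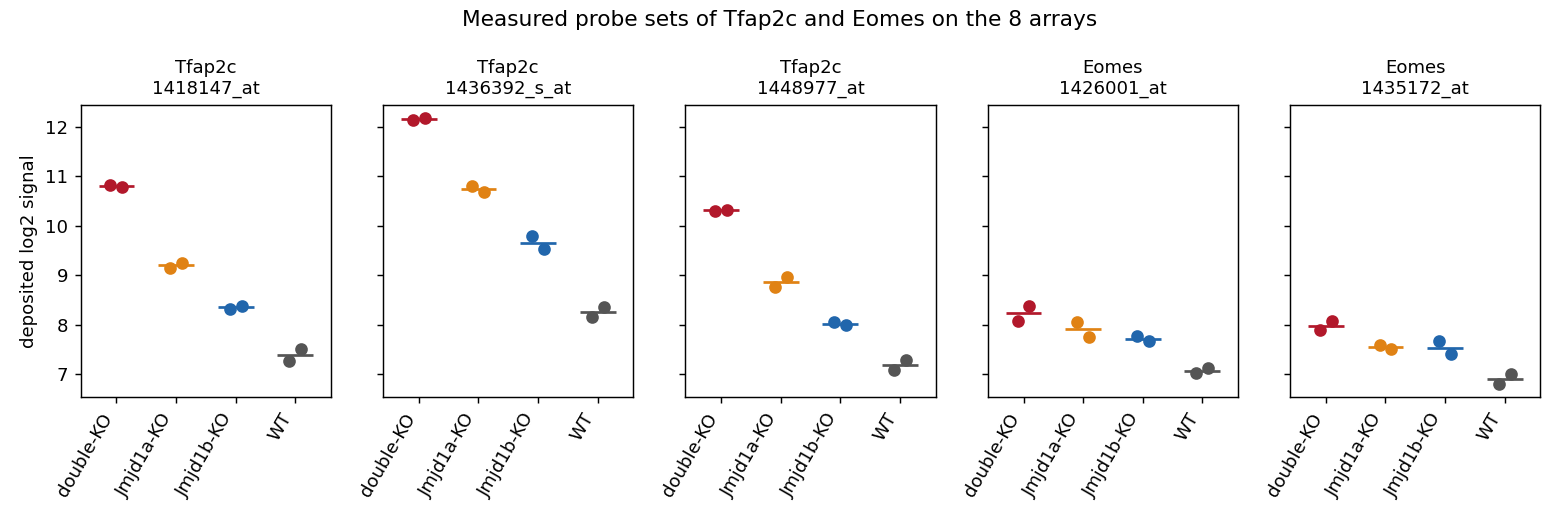
Deposited log2 signal (vertical axis) of the 5 measured probe sets of Tfap2c and Eomes, with 1 point per array and a bar at the mean of the 2 arrays of each group. The Tfap2c panels step down through double-KO, Jmjd1a-KO, Jmjd1b-KO and WT without overlap, and in the Eomes panels the 2 single knockouts overlap while both lie above WT.

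Eomes, a T-box factor of trophoblast stem cells and of mesendoderm, was also higher in every knockout group than in WT, by less than Tfap2c. Probe set 1426001_at read 8.08 and 8.38 in double-KO, 8.06 and 7.75 in Jmjd1a-KO and 7.78 and 7.67 in Jmjd1b-KO, against 7.02 and 7.13 in WT. Probe set 1435172_at read 7.89 and 8.07 in double-KO, 7.60 and 7.51 in Jmjd1a-KO and 7.66 and 7.41 in Jmjd1b-KO, against 6.80 and 7.01 in WT. Each knockout array lay above both WT arrays in both probe sets. The arrays of the single knockouts overlapped each other, and the lowest double-KO array lay above the highest Jmjd1a-KO array by 0.02 in 1426001_at and 0.29 in 1435172_at, where replicates differed by up to 0.31 and 0.26. Since the arrays measure whole cultures, more cells that express a gene and more RNA per cell cannot be told apart.

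The other 6 factors gave no measured difference. Their 12 probe sets held the same value on all 8 arrays to within 5.8e-08, so the table neither shows a change nor shows that there was none. Cdx2, the homeobox factor of the trophectoderm, stood at 6.61 in both of its probe sets. Elf5, an Ets-family factor that reinforces the trophoblast fate, stood at 6.36 and 6.32. Gata3, a zinc-finger factor that acts beside Cdx2, stood at 6.25 in its single probe set. Hand1, a basic helix-loop-helix factor of trophoblast giant cells, stood at 7.01 and 6.99, and Tead4, the partner of the Hippo effector Yap1, at 6.74 and 6.99. Ets2, an Ets-family factor of trophoblast stem cell renewal, had 3 probe sets at 7.80, 6.03 and 6.69. Signals of different probe sets are not comparable as transcript levels, and signal over background was not analysed here.

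Loss of both demethylases went with the largest rise of Tfap2c against WT. In double-KO against WT, 5 of the 17 member probe sets rose, all of those measured, where 26.9% of all measured probe sets rose and 19.6% fell. Tfap2c rose by 3.89 ± 0.11 (SE, n = 2 arrays per group, limma adjusted p = 4.94e-05) in 1436392_s_at, a ratio of 14.9 if the signals are true log2 values. The other Tfap2c probe sets rose by 3.41 ± 0.09 and 3.12 ± 0.10 (limma adjusted p = 4.51e-05 and 6.09e-05). Eomes rose by 1.16 ± 0.14 in 1426001_at and by 1.07 ± 0.12 in 1435172_at (limma adjusted p = 0.0019 and 0.0015), about 2.23 and 2.10 as ratios. All 5 calls held without any single array. Because a probe set counts as measured only if it varied, the share of measured probe sets that rose is no evidence of its own.

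Loss of Jmjd1a alone went with a rise of both measured factors. In Jmjd1a-KO against WT, the same 5 probe sets rose, where 9.98% of all measured probe sets rose and 7.84% fell. Tfap2c rose by 2.48 ± 0.11, 1.80 ± 0.09 and 1.68 ± 0.10 in 1436392_s_at, 1418147_at and 1448977_at (limma adjusted p = 0.00125, 0.00142 and 0.00142). Eomes rose by 0.83 ± 0.14 and 0.65 ± 0.12 in 1426001_at and 1435172_at (limma adjusted p = 0.0174 and 0.0222). Both Eomes calls were lost without Jmjd1a-KO replicate 1, WT replicate 1 or WT replicate 2, with changes of 0.55 to 0.89 and adjusted p between 0.0503 and 0.106. With all 45101 probe sets in the fit, 3 probe sets rose and Eomes had adjusted p = 0.139 and 0.155. The 3 Tfap2c calls held in both cases.

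Loss of Jmjd1b alone went with a smaller rise of Tfap2c. In Jmjd1b-KO against WT, all 5 measured probe sets rose again, where 12.3% of all measured probe sets rose and 11.5% fell. Tfap2c rose by 1.40 ± 0.11, 0.96 ± 0.09 and 0.84 ± 0.10 in the order above (limma adjusted p = 0.00356, 0.00463 and 0.00665), and Eomes rose by 0.65 ± 0.14 and 0.63 ± 0.12 (limma adjusted p = 0.0275 and 0.0209). Every Jmjd1b-KO array lay above both WT arrays in all 5 probe sets. Some of the calls were lost when any array of Jmjd1b-KO or WT was left out, where calls over all measured probe sets fell as well. Without one array at a time the changes were 0.84 to 1.08 in 1418147_at and 0.74 to 0.93 in 1448977_at. Those of Eomes were 0.59 to 0.70 in 1426001_at and 0.50 to 0.76 in 1435172_at. The Tfap2c probe set 1436392_s_at kept its call throughout, with changes of 1.27 to 1.53 over the 8 omissions. With all 45101 probe sets in the fit 2 of the 5 rose, both of Tfap2c, and 1448977_at had adjusted p = 0.0517. The comparisons against WT share the WT arrays.

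**Figure D2:**
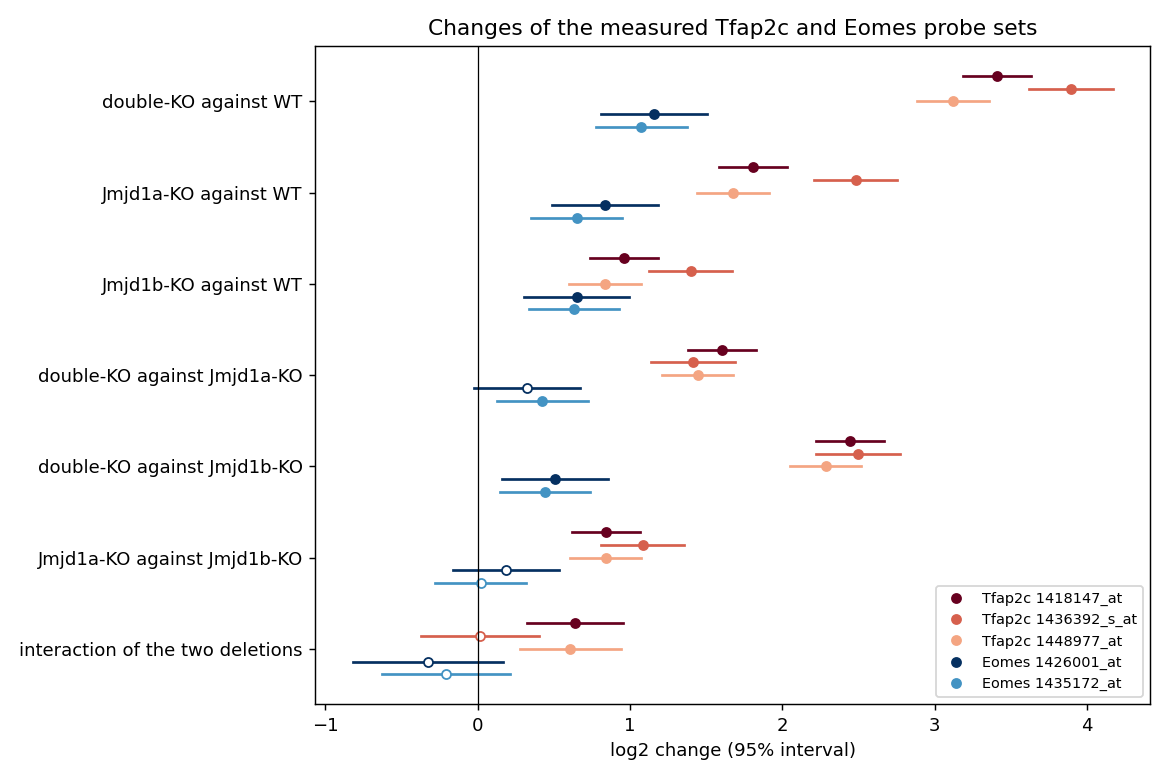
Log2 change (horizontal axis) with its 95% interval for the 5 measured probe sets in each comparison and in the interaction; filled points have an adjusted p under 0.05 and open points do not. The Tfap2c intervals lie between 2.89 and 4.17 in double-KO against WT, and between 0.60 and 1.67 in Jmjd1b-KO against WT.

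The single knockouts were then set against each other and against the double-KO. Jmjd1a-KO against Jmjd1b-KO, a contrast added after the levels had been seen, had 3 member probe sets that rose, all of Tfap2c, where 15.1% of all measured probe sets rose and 12.7% fell. The Tfap2c differences were 1.08 ± 0.11, 0.84 ± 0.09 and 0.84 ± 0.10 (limma adjusted p = 0.0027, 0.00314 and 0.00365), and every Jmjd1a-KO array lay above every Jmjd1b-KO array. For Eomes the differences were 0.19 (95% interval -0.16 to 0.53) and 0.02 (95% interval -0.28 to 0.32).

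Loss of Jmjd1b in cells without Jmjd1a went with a further rise of Tfap2c. In double-KO against Jmjd1a-KO, 4 member probe sets rose, where 17.0% of all measured probe sets rose and 11.9% fell. Tfap2c rose by 1.41 ± 0.11, 1.60 ± 0.09 and 1.44 ± 0.10 in 1436392_s_at, 1418147_at and 1448977_at (limma adjusted p = 0.00126, 0.000581 and 0.000827). Eomes rose by 0.42 ± 0.12 in 1435172_at (limma adjusted p = 0.0476), a call that was lost without any one of the 8 arrays (adjusted p between 0.0561 and 0.168). Its other probe set changed by 0.32 (95% interval -0.02 to 0.67, limma adjusted p = 0.139). In double-KO against Jmjd1b-KO all 5 measured probe sets rose, where 28.3% of all measured probe sets rose and 21.8% fell. Tfap2c rose by 2.50 ± 0.11, 2.45 ± 0.09 and 2.28 ± 0.10 (limma adjusted p = 0.000147, 9.05e-05 and 0.000123), and Eomes by 0.51 ± 0.14 and 0.44 ± 0.12 (limma adjusted p = 0.0273 and 0.0264). Both Eomes calls were lost when replicate 2 of either group was left out, that of 1426001_at also when Jmjd1b-KO replicate 1 was, and both were lost with all 45101 probe sets in the fit (adjusted p = 0.165 and 0.154).

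The interaction asks whether the change on losing both enzymes differs from the sum of the single changes on the log2 scale. The Tfap2c probe sets gave different answers. The interaction was 0.64 ± 0.13 in 1418147_at and 0.61 ± 0.13 in 1448977_at (limma adjusted p = 0.0201 and 0.0259), so there the double-KO lay above the sum. These were 2 positive calls among the 5 measured member probe sets, where 13.9% of all measured probe sets had a positive and 11.1% a negative interaction. In 1436392_s_at, whose signals were the highest, it was 0.02 (95% interval -0.37 to 0.40, limma adjusted p = 0.953). Both positive calls were lost with all 45101 probe sets in the fit (adjusted p = 0.121 and 0.151) and without double-KO replicate 1 or either of the Jmjd1b-KO arrays, and 1448977_at also lost its call without double-KO replicate 2 or WT replicate 2. Eomes had interactions of -0.33 (95% interval -0.82 to 0.16) and -0.21 (95% interval -0.63 to 0.21), neither past the threshold.

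The genes whose signals followed 1436392_s_at most closely over the 8 arrays were sought among 2779 probe sets of 2144 other genes that spanned at least 1. The 5 highest Pearson correlations were those of Nr3c1, the glucocorticoid receptor (0.995), the homeobox gene Six4 (0.992), the G-protein subunit gene Gnai1 (0.990), Slain1, a microtubule regulator (0.990), and Cd200, a surface glycoprotein (0.990). Nr3c1 had mean signals of 8.02 in double-KO, 7.44 in Jmjd1a-KO and 7.08 in Jmjd1b-KO, against 6.53 in WT, in 2 arrays per group. Cd200 had a wider range, with means of 8.83 in double-KO, 7.26 in Jmjd1a-KO and 6.74 in Jmjd1b-KO, against 5.43 in WT. The 3 lowest correlations were those of Ccdc160 (-0.984), Nsg2 (-0.982) and A930004D18Rik (-0.979). Nsg2, a neuronal vesicle protein gene, read 7.20 and 7.16 in double-KO, 7.95 and 8.06 in Jmjd1a-KO and 8.23 and 8.17 in Jmjd1b-KO, against 9.08 and 9.10 in WT. The other Tfap2c probe sets correlated with it at 0.989 each, and those of Eomes at 0.949 and 0.942. The 8 arrays are 4 groups of 2, so any gene with the same order of group means scores high. Of the 9 RefSeq windows found for 7 of these 8 genes, 3 held the AP-2 motif, against 16.6% of all windows. They were those of Gnai1, Slain1 and Ccdc160, and Ccdc160 ran opposite to Tfap2c.

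**Figure D3:**
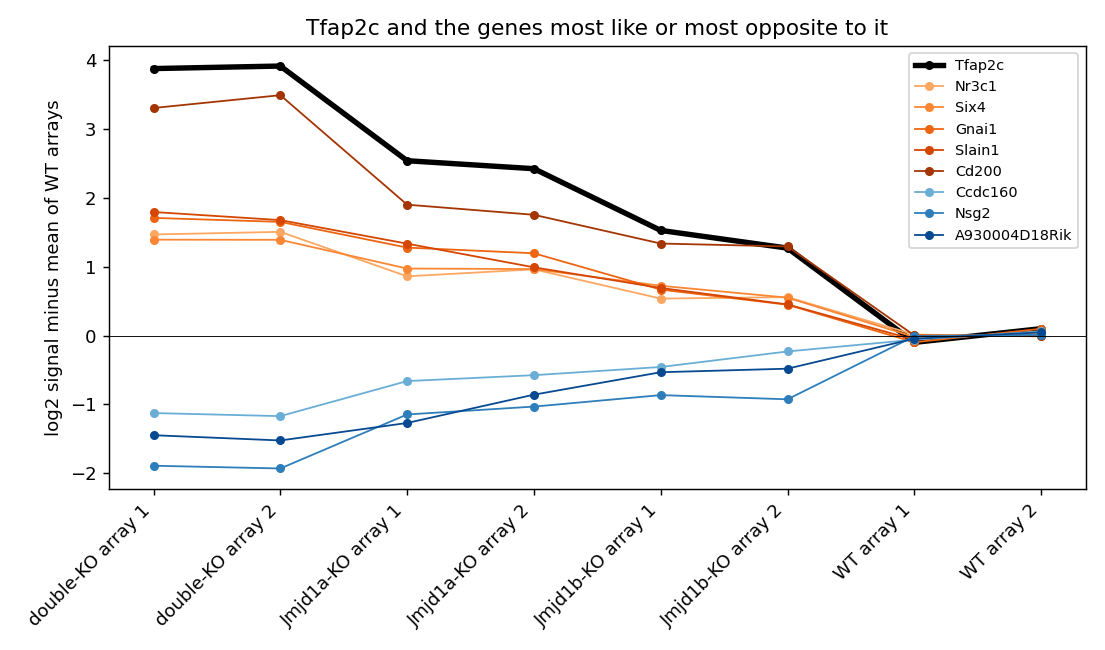
Log2 signal of each array minus the mean of the WT arrays (vertical axis) for Tfap2c, probe set 1436392_s_at, the 5 genes with the highest and the 3 with the lowest correlation with it. The lines run in parallel or mirrored steps through the 4 groups.

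The paralogs of Tfap2c had no called change. Of 7 probe sets of Tfap2a, Tfap2b, Tfap2d and Tfap2e, 6 were flat. That of Tfap2e was measured, at 6.84 and 6.84 in double-KO, 6.89 and 6.86 in Jmjd1a-KO and 6.84 and 6.86 in Jmjd1b-KO, against 6.87 and 6.85 in WT, and had no call in any comparison.

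Among 30 further trophoblast and placenta genes, 23 had a probe set of their own and 15 had a measured one, with 25 measured probe sets in all. This list and those below were chosen with earlier results of these data known, so their shares are no evidence of their own. In double-KO against WT, 9 of these probe sets rose and 0 fell, where 26.9% of all measured probe sets rose and 19.6% fell, and the median change was 0.11 against 0.02 over all measured probe sets. With all 45101 probe sets in the fit 7 rose. Of the simple epithelial keratins, which trophoblast shares with other epithelia, Krt8, Krt18 and Krt19 made up most of them. Krt8 rose in all 3 of its probe sets, by 2.40 ± 0.29 in the first, Krt18 by 1.72 ± 0.11 and Krt19 by 1.63 ± 0.19 (limma adjusted p = 0.00181, 0.000305 and 0.00154). Krt7, another listed keratin, overlapped WT in double-KO. It read 6.49 and 6.67 in double-KO, 6.52 and 6.46 in Jmjd1a-KO and 7.05 and 7.33 in Jmjd1b-KO, against 6.66 and 6.57 in WT. Krt18 read 9.64 and 9.74 in double-KO, 7.70 and 7.80 in Jmjd1a-KO and 8.83 and 9.04 in Jmjd1b-KO, against 7.86 and 8.07 in WT, so only double-KO and Jmjd1b-KO lay above WT. Nrk, an X-linked kinase gene of the placenta, rose by 3.02 ± 0.39 in double-KO (limma adjusted p = 0.00224) and by 2.38 ± 0.39 in Jmjd1a-KO (limma adjusted p = 0.0162, and 0.143 with all probe sets), and its change of -0.66 in Jmjd1b-KO had no call. Its signals were 11.50 and 10.59 in double-KO, 10.86 and 9.95 in Jmjd1a-KO and 7.32 and 7.42 in Jmjd1b-KO, against 8.16 and 7.89 in WT, so it was high in both groups without Jmjd1a, where the replicates also lay 0.91 apart. These values are those of its brightest probe set; the dimmest of its 3 had no call. In Jmjd1a-KO against WT, 3 of the 25 rose and 2 fell, shares close to the 9.98% and 7.84% of all measured probe sets. Both that fell were probe sets of Ascl2, at -0.67 ± 0.14 and -0.46 ± 0.09 (limma adjusted p = 0.0313 and 0.0219). With all probe sets in the fit the adjusted p were 0.196 and 0.133, and the remaining Ascl2 probe set overlapped WT. None of the listed keratins was among the calls. In Jmjd1b-KO against WT, 9 rose and 2 fell, where 12.3% and 11.5% of all measured probe sets did. Krt19 (1.78 ± 0.19) and Bmp4, a signalling ligand (1.52 ± 0.29), were the 2 highest. Fewer than 9 rose when any array of Jmjd1b-KO or WT was left out, and 0 did with all 45101 probe sets in the fit. Calls over all probe sets fell in each of these settings too, from 2744 to 819 with all 45101 in the fit. The Jmjd1a-KO count of 3 was 1 without either Jmjd1b-KO array, 0 without either WT array, 6 without either double-KO array and 0 with all probe sets in the fit. The 2 that fell in each single knockout became 0 without any one WT or Jmjd1b-KO array, in Jmjd1a-KO also 0 without Jmjd1a-KO replicate 1, and in Jmjd1b-KO 4 without either Jmjd1a-KO array. In double-KO, where 0 fell, 2 fell when its replicate 2 was left out and 1 when an array of Jmjd1a-KO was.

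Factors of primordial germ cells, in which Tfap2c acts with Prdm1 and Prdm14, were measured for 8 of 10 listed genes with 10 probe sets. In double-KO against WT, 7 rose and 0 fell, where 26.9% and 19.6% of all measured probe sets did. The 7 belonged to 6 genes, and the list was chosen with earlier results of these data known. The median change was 0.88, and the count of those that rose was 6 to 7 over the omissions of an array and 5 with all 45101 probe sets in the fit. Prdm1, a transcriptional repressor that opens the germ cell programme, read 9.11 and 8.62 in double-KO, 7.32 and 7.23 in Jmjd1a-KO and 7.52 and 7.47 in Jmjd1b-KO, against 7.12 and 7.19 in WT. It rose by 1.72 ± 0.15 in double-KO (limma adjusted p = 0.000779), and its single-knockout changes of 0.12 and 0.34 had no call. Prdm14 rose by 0.71 ± 0.14 in double-KO (limma adjusted p = 0.00957, and 0.09 with all probe sets). Dazl and Ddx4, RNA-binding proteins of later germ cells, rose in double-KO by 2.85 ± 0.08 in the first of 2 Dazl probe sets and by 1.22 ± 0.09 (limma adjusted p = 4.51e-05 and 0.00052). Both also rose in Jmjd1b-KO: the second Dazl probe set read 9.15 and 8.99 in double-KO, 6.72 and 6.72 in Jmjd1a-KO and 7.80 and 7.95 in Jmjd1b-KO, against 6.85 and 7.08 in WT. The changes in Jmjd1b-KO were 1.32 ± 0.08 and 0.91 ± 0.11 for Dazl and 0.85 ± 0.09 for Ddx4 (limma adjusted p = 0.00213, 0.00692 and 0.0063). In Jmjd1b-KO 3 of the 10 rose and 2 fell, where 12.3% and 11.5% of all measured probe sets did. In Jmjd1a-KO 2 rose and 0 fell, where 9.98% and 7.84% of all measured probe sets did. The Jmjd1b-KO counts were 1 and 0 without Jmjd1b-KO replicate 2 or WT replicate 1, 5 and 0 without either double-KO array, and 2 and 0 with all probe sets in the fit. None fell without Jmjd1b-KO replicate 1 or WT replicate 2 either, and 4 fell without either Jmjd1a-KO array. The Jmjd1a-KO calls that rose became 1 without Jmjd1a-KO replicate 1 or either Jmjd1b-KO array and 0 without either WT array or with all probe sets in the fit, and 2 fell without Jmjd1a-KO replicate 2.

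Genes of the Hippo pathway, which sets the activity of Tead factors, were measured for 13 of 17 listed genes with 20 probe sets. In double-KO against WT, 8 rose and 4 fell, where 26.9% and 19.6% of all measured probe sets did, so the share that fell was that of the background. The median was 0.11. The 8 became 4 without WT replicate 1, 3 without WT replicate 2, 5 without double-KO replicate 2 and 2 with all 45101 probe sets in the fit, where the 2 were Yap1 (0.75 ± 0.07) and Wwtr1 (1.80 ± 0.24), the coactivators that Tead factors bind. The second Yap1 probe set changed by 0.07 without a call. The 4 that fell became 2 without WT replicate 2 and with all probe sets. Tead2, a paralog of Tead4, fell in every knockout group. Its changes were -0.42 ± 0.06 in double-KO, -0.29 ± 0.06 in Jmjd1a-KO and -0.52 ± 0.06 in Jmjd1b-KO (limma adjusted p = 0.00248, 0.0228 and 0.00567). With all probe sets in the fit the adjusted p were 0.0115, 0.0565 and 0.00999. Tead1, another paralog, read 10.06 and 10.35 in double-KO, 10.00 and 9.83 in Jmjd1a-KO and 8.38 and 8.20 in Jmjd1b-KO, against 9.78 and 9.51 in WT. It fell by 1.35 ± 0.14 in Jmjd1b-KO (limma adjusted p = 0.00568, and 0.0528 with all probe sets), a call lost without Jmjd1b-KO replicate 2 or WT replicate 1, and rose by 0.56 ± 0.14 in double-KO (limma adjusted p = 0.023, and 0.153 with all probe sets). Among 19 measured probe sets for Fgf and Erk signalling, which maintains trophoblast stem cells, 4 rose and 4 fell in double-KO against WT, shares near the 26.9% and 19.6% of all measured probe sets, and 1 each way with all 45101 probe sets in the fit. The 4 that rose were 2 without either WT array, and the 4 that fell were 2 without WT replicate 2. Those that rose included the inhibitor Spry1 (1.16 ± 0.10). Those that fell were the Ets factor Etv4 (-0.85 ± 0.13) and 3 probe sets of 1 gene, Etv5 (-1.03 ± 0.21, -1.09 ± 0.20 and -1.07 ± 0.23). The same 3 Etv5 probe sets were those that fell in Jmjd1a-KO. Relative to WT, 9.98% of all measured probe sets were called higher in Jmjd1a-KO and 7.84% lower. For Jmjd1b-KO these background shares were 12.3% and 11.5%. In the single knockouts 3 Hippo probe sets rose and 2 fell in Jmjd1a-KO and 1 rose and 6 fell in Jmjd1b-KO, and for Fgf and Erk signalling 2 rose and 3 fell in Jmjd1a-KO and 2 rose and 1 fell in Jmjd1b-KO. All of these were 0 without WT replicate 1.

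**Figure D4:**
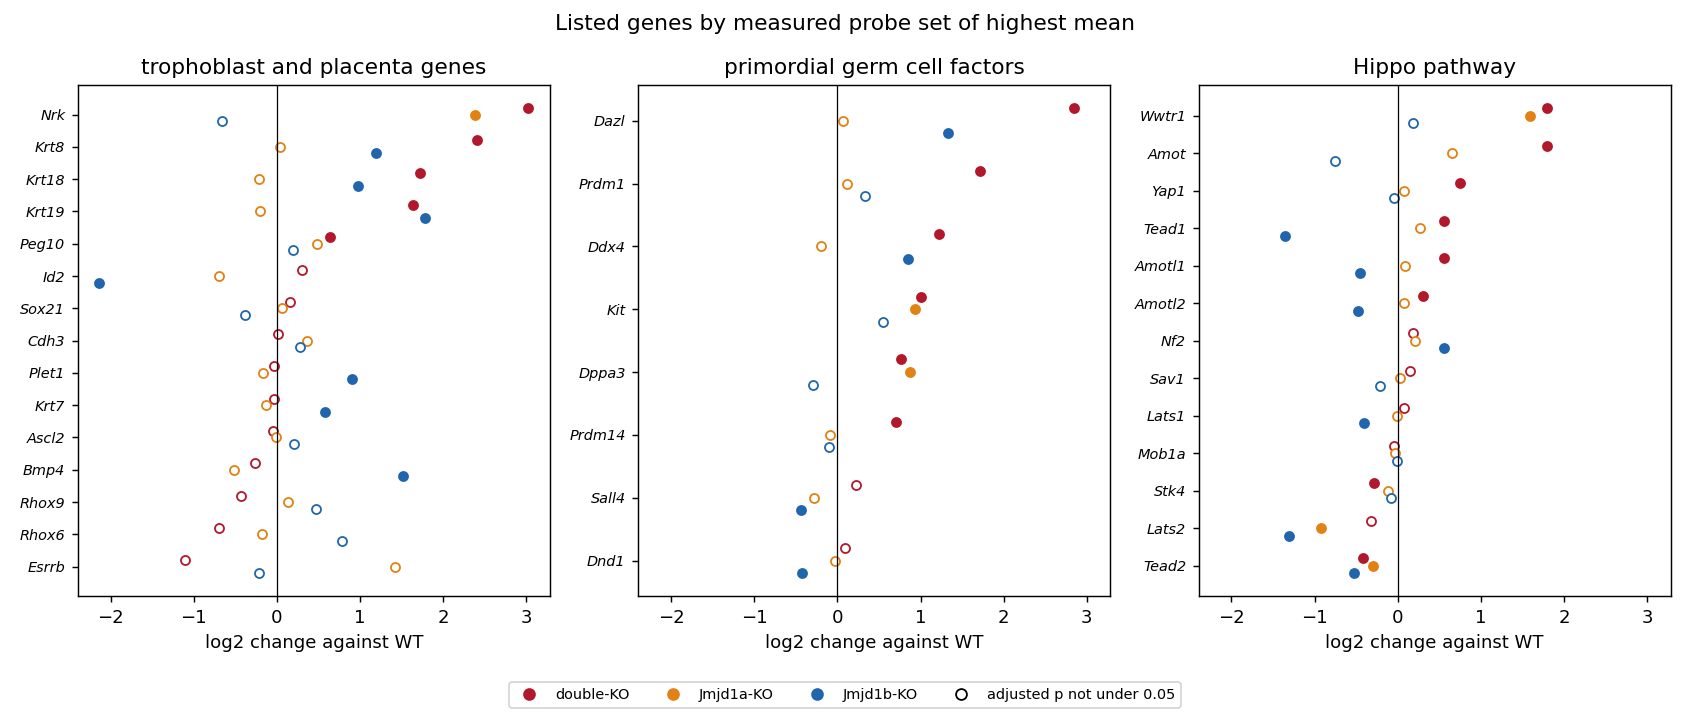
Log2 change against WT (horizontal axis) in double-KO, Jmjd1a-KO and Jmjd1b-KO for listed trophoblast and placenta genes, primordial germ cell factors and Hippo pathway genes, each by its measured probe set of highest mean; filled points have an adjusted p under 0.05. Krt8, Krt18 and Krt19 lie to the right in double-KO and Jmjd1b-KO, and Nrk in double-KO and Jmjd1a-KO.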

How the data were processed

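RNA of mouse embryonic stem cells was hybridised to Affymetrix arrays, 1 per sample, after cRNA was made from 200 ng of RNA, per the labels' protocols. The authors deposited log2 values, 1 per probe set and array. The unit was read from the values, since no label states it. R 2.7.2 was used, per the submitters' processing notes. How the signals were background-corrected, normalized and summarised was not given in the sources used here. Of 45101 probe sets, 33599 spanned less than 0.01 over the 8 arrays and were left out of the fit, because they set its prior variance to 7.31e-21, against 0.00681 without them. Probe sets were named by the platform's gene table: 34958 had 1 symbol, 932 several and 9211 none. All 8 member gene IDs matched RefSeq.

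Differences were tested with limma 3.58.1 in R 4.3.3 (lmFit, eBayes, two-sided) over 11502 probe sets, adjusted by the Benjamini-Hochberg method, with all groups in 1 fit and 4 residual and 1.89 prior degrees of freedom. The fit was tested on simulated data. Named genes were the members, the deleted genes, the 5 most and 3 least correlated with Tfap2c, and listed genes past the threshold, of which those shown were picked by eye. Members and lists were chosen with earlier results of these data known. Groups came from sample titles. Deviations of arrays with the same replicate number correlated at -0.04 to 0.24 between groups, so arrays were not paired. Alternatives were all probe sets, 1 probe set per gene, quantile normalization, median centring, a mean of at least 7, only the groups compared, a replicate block, robust eBayes with trend, adjusted p under 0.01, a change of at least 1 and omission of each array. List counts under all probe sets and under omission, and the contrast of the single knockouts, were added after seeing the data. Figures used matplotlib 3.10.9.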

Additional observations from a re-analysis of the deposited data

Results flagged for a closer look

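The change that went with loss of Jmjd1b differed between cells without and with Jmjd1a by the interaction test (limma adjusted p under 0.05) for 2 Tfap2c probe sets, 1418147_at (0.64) and 1448977_at (0.61), but not for the third. Such a difference cannot be told apart from differences between the lines. Each value is the change in double-KO against Jmjd1a-KO minus the change in Jmjd1b-KO against WT, on the log2 scale. Of the 26 values in this section, 22 lost their call with all 45101 probe sets in the fit (limma adjusted p between 0.0588 and 0.243), and the 4 that kept it were those of Yap1, Tead2 and both Dazl probe sets. Among all measured probe sets, 13.9% had a positive and 11.1% a negative call. The calls over all probe sets fell from 2868 to 1247 with all 45101 in the fit.

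Among Hippo pathway genes the same test gave 1.64 for Tead1, 1.91 for Lats2, 1.90 for Amot, 0.92 for Amotl1, 0.72 for Yap1, 0.71 for Amotl2, 0.40 for Tead2, 0.34 for Sav1 and -0.87 for Nf2. Second probe sets without a call gave 0.13 for Lats2, 0.01 for Amotl1, 0.24 for Yap1 and -0.57 for Nf2. For Fgf and Erk signalling it gave 2.86 for Dusp4 and -1.25 for Etv4. Among trophoblast and placenta genes the values were 3.14 and 1.67 for the Id2 probe sets, 0.97 for Krt18, -0.62 for Cdh3, -0.77 for Plet1 and -1.35 for 1 of 3 Esrrb probe sets. Among primordial germ cell factors they were 1.45 and 1.44 for Dazl, 1.26 for Prdm1, 0.94 and 0.86 for Sall4, 0.91 for Prdm14 and 0.57 for Ddx4. Replicates lay wide apart for some of the largest values. For the Id2 probe sets they differed by 1.32 and 0.91 in double-KO and by 1.13 and 0.62 in Jmjd1a-KO. For Dusp4 they differed by 0.88 in double-KO and 1.15 in Jmjd1a-KO, and for Amot by 1.24 in double-KO.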

How the results depend on the processing

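The change of the Tfap2c probe set 1436392_s_at kept its direction and its side of the threshold in each comparison of 2 groups under all alternatives tried, and no call of a measured member probe set reversed. Without one array at a time it ranged from 3.79 to 3.99 in double-KO against WT, 2.38 to 2.58 in Jmjd1a-KO, 1.27 to 1.53 in Jmjd1b-KO, 1.36 to 1.47 in double-KO against Jmjd1a-KO and 2.37 to 2.62 against Jmjd1b-KO, and its interaction ranged from -0.11 to 0.14. The number of called member probe sets moved. With all probe sets in the fit it was 3 in Jmjd1a-KO against WT, 2 in Jmjd1b-KO against WT, 3 in double-KO against Jmjd1b-KO and 0 in the interaction. With 1 probe set per gene, where 2 at most can be called, it was 2, 2 and 2 in Jmjd1a-KO, Jmjd1b-KO and double-KO against WT, 1 in double-KO against Jmjd1a-KO, 2 against Jmjd1b-KO and 0 in the interaction. With only the groups compared it was 3 in Jmjd1a-KO against WT. At an adjusted p under 0.01 it was 3 in Jmjd1a-KO and 3 in Jmjd1b-KO against WT, 3 in double-KO against Jmjd1b-KO and 0 in the interaction, and with a change of at least 1 these were 3, 1, 3 and 0. Without one array at a time the counts were 3 to 5 in Jmjd1a-KO, 1 to 5 in Jmjd1b-KO and 5 to 5 in double-KO against WT, 3 to 3 in double-KO against Jmjd1a-KO, 3 to 5 against Jmjd1b-KO and 0 to 2 in the interaction. Where an array is left out, the lone array of its group is assumed to vary like the others. Eomes 1435172_at lost its call in double-KO against Jmjd1a-KO under quantile normalization, centring, robust eBayes with trend and only the groups compared (adjusted p = 0.0623, 0.0748, 0.0512 and 0.093), and centring ended that of 1426001_at against Jmjd1b-KO (adjusted p = 0.0557). The cause of these losses was not tested, beyond the fewer arrays or probe sets that some settings hold.

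The replicate number as a block left 5, 5 and 5 called member probe sets in Jmjd1a-KO, Jmjd1b-KO and double-KO against WT, 3 in double-KO against Jmjd1a-KO, 5 against Jmjd1b-KO and 2 in the interaction, and the Tfap2c changes were the same, 3.89 in double-KO against WT among them. It ended the call of Eomes 1435172_at in double-KO against Jmjd1a-KO (adjusted p = 0.0776) and no other call of a member. Over all measured probe sets, 2050, 2744 and 5350 were called in Jmjd1a-KO, Jmjd1b-KO and double-KO against WT, 3329 and 5762 in double-KO against Jmjd1a-KO and Jmjd1b-KO, and 2868 in the interaction. With all 45101 probe sets in the fit these were 775, 819, 3228, 1291, 3821 and 1247. Over the other alternatives they ranged from 186 to 3674, 104 to 5071, 1185 to 6083, 556 to 3448, 1350 to 6516 and 763 to 3976. Signal over background was not analysed, so a low signal cannot be told from none.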
